A study of Homo sapiens with 4 samples.

Results

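The genes described here carry the names CEP (centrosomal protein), IFT (intraflagellar transport) or BBS (Bardet-Biedl syndrome), each followed directly by a number. They were taken as the array rows that the platform annotation assigns to exactly 1 symbol of this form, with the row of highest mean value kept for each gene. The rule found 63 genes, 37 CEP, 18 IFT and 8 BBS, among 18417 genes with a row of 1 symbol. The rule takes genes by name, but members, groups and lists were chosen with earlier results of these data known. They were measured in AGS, an established cell line from a human gastric adenocarcinoma, on 4 Affymetrix whole-transcript arrays of total RNA. In 2 cultures the cells received 0.01% ornithogalum, a plant-derived preparation that the series title calls homeopathic, for 36 hours, and in 2 cultures they received the ethanol vehicle for the same 36 hours. The labels call the 2 arrays of each group biological replicates of this 1 cell line, so a p-value here reflects only how far these cultures spread.

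The centrosome is built around a pair of centrioles, and the older centriole can dock at the plasma membrane and template a primary cilium, a microtubule-based antenna that many epithelial cells carry outside of division. Cargo moves along the ciliary microtubules on trains made of 2 complexes, IFT-B, which is linked to outward transport by kinesin, and IFT-A, which is linked to return transport by dynein and to the entry of membrane proteins. The BBSome is a coat-like complex that rides with these trains and carries membrane receptors out of the cilium. Many CEP proteins build, cap or anchor the centriole, and several lie in the transition zone at the base of the cilium. Whether AGS cells carried cilia in these cultures was not measured.

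Among the ciliary transport genes nearly all called differences were falls with ornithogalum, while the CEP genes were called in both directions. Of the 18 IFT genes, 9 fell, 0 rose and 9 did not pass the test, which was limma with Benjamini-Hochberg adjustment over all 21214 rows with a symbol, at a threshold of 0.05. Over all those rows 12.6% were called lower and 6.57% higher. Of the 8 BBS genes, 3 fell (37.5%), 1 rose (12.5%) and 4 did not pass. Of the 37 CEP genes, 7 fell (18.9%), 4 rose (10.8%) and 26 did not pass. The median log2 difference, ornithogalum minus vehicle, was -0.71 for the IFT genes, -0.44 for the BBS genes and -0.11 for the CEP genes, beside 0.035 for all tested rows. These shares and medians describe the gene families, and the difference between families was not tested.

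The values on single arrays were as follows. Over the IFT genes the median deposited value, on the log2 scale, was 4.02 and 4.16 with ornithogalum, against 4.74 and 4.71 with vehicle. For the BBS genes it was 3.63 and 3.59 with ornithogalum and 4.72 and 4.57 with vehicle. For the CEP genes it was 4.86 and 5.04 with ornithogalum and 5.11 and 5.08 with vehicle. Both ornithogalum arrays lay below both vehicle arrays for 14 IFT, 5 BBS and 16 CEP genes, and over all tested rows this held for 30.2%. Both ornithogalum arrays lay above both vehicle arrays for 0 IFT, 1 BBS and 12 CEP genes, and over all tested rows this held for 32.0%. Of all 63 genes, 24 were called, and in each of these the groups did not overlap. The test itself favours groups that lie apart, so this adds no separate support. In bulk RNA, fewer cells of a kind and less RNA per cell cannot be told apart.

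All of these calls rested on having both vehicle arrays. Without vehicle replicate 1, and likewise without vehicle replicate 2, limma called 0 of the 21214 rows, with 4192 and 3986 rows at an unadjusted p under 0.05. At that unadjusted threshold the IFT genes had 9 lower and 0 higher without vehicle replicate 1, and 11 lower and 0 higher without vehicle replicate 2, against 12 lower and 0 higher with all 4 arrays. The 24 called genes kept their direction without each array in turn, as they must when the groups do not overlap.

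**Figure D1:**
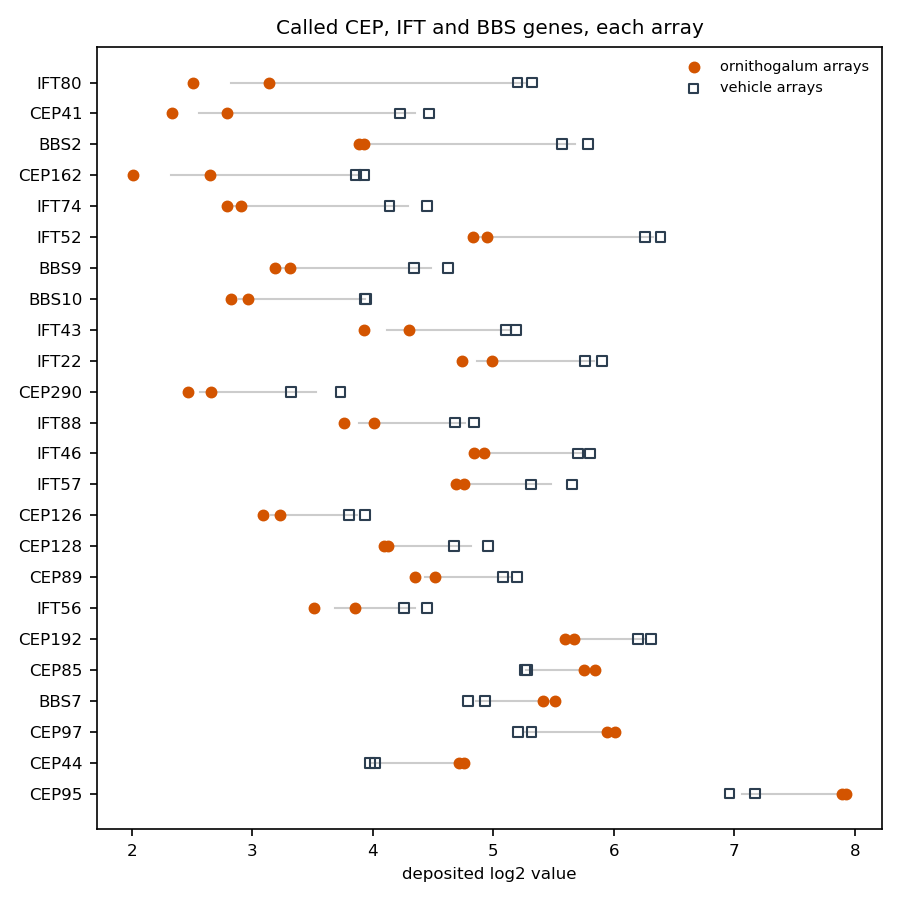
Deposited log2 value (horizontal axis) on each array for the 24 called CEP, IFT and BBS genes (rows, from the most negative to the most positive difference); filled circles are the ornithogalum arrays, open squares the vehicle arrays and each grey line joins the group means. The 19 genes at the top have both circles left of both squares, with IFT80 the widest apart at 2.51 and 3.14 on the ornithogalum arrays against 5.32 and 5.20 on the vehicle arrays, and the 5 at the bottom have them right of both squares.

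Because many ciliary genes share a binding site for regulatory factor X (RFX) proteins in their promoters, the promoter windows of these genes were read for its half-site. The windows were the 250 bases before each annotated start in RefSeq, build GRCh38.p14, and the letters searched were GTTGCC on both strands, which read as GGCAAC on the strand opposite. Of the 63 genes, 56 had a window, and 17 of these 56 (30.4%) held the half-site, beside 1974 of 14237 genes (13.9%) that have a row of 1 symbol and 3352 of 27305 genes (12.3%) in the whole promoter table. The half-site was present for 7 of 17 IFT genes, 2 of 7 BBS genes and 8 of 32 CEP genes. By call, it was present for 6 of 17 genes that fell, 1 of 5 that rose and 10 of 34 that did not pass. The share with a match thus stood at 35.3%, 20% and 29.4%. A match gives only the presence of these letters, and nothing was measured here of RFX binding.

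A second motif, the cell cycle homology region TTTGAA, which occurs in promoters of genes expressed late in the cell cycle, was read in the same windows. Its letters differ from the RFX half-site on both strands, so no match of one is a match of the other. It was present for 13 of 56 of these genes (23.2%), beside 14.0% of genes with a row of 1 symbol and 16.1% of the whole promoter table. Of the CEP genes 9 of 32 held it, of the IFT genes 4 of 17 and of the BBS genes 0 of 7. It was present for 5 of 17 genes that fell (29.4%: CEP192, CEP290, CEP89, IFT56 and IFT80), 0 of 5 that rose and 8 of 34 that did not pass (23.5%).

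Among the IFT-B genes with an IFT name, 8 of 15 fell (53.3%, beside 12.6% of all tested rows) and 0 rose. Their median log2 difference was -0.76. IFT80, an IFT-B subunit mutated in human skeletal ciliopathies, had the largest difference of all 63 genes. Its log2 value was 2.51 and 3.14 with ornithogalum, against 5.32 and 5.20 with vehicle, a log2 difference of -2.44 (SE 0.23, adjusted p = 0.00459), or 5.42-fold lower. The lowest vehicle array was well above the highest ornithogalum array, although the ornithogalum arrays differed from each other more than the vehicle arrays did.

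IFT74 and IFT81 form a dimer that binds tubulin as cargo. IFT74 fell, with 2.91 and 2.79 with ornithogalum against 4.45 and 4.14 with vehicle, a log2 difference of -1.45 (SE 0.15, adjusted p = 0.00557). IFT81 was 2.78 and 2.02 with ornithogalum and 3.54 and 3.28 with vehicle, a log2 difference of -1.01 that did not pass (SE 0.28, adjusted p = 0.0663, 95% interval -1.72 to -0.30). The arrays of each group did not overlap for either partner. The spread between the ornithogalum arrays of IFT81 gave it the widest SE of the IFT genes. Its call was gained with an intensity trend (adjusted p = 0.0438) and with quantile normalization (0.0291), but not after median centring (0.108). Its difference was -1.39 without ornithogalum replicate 1 and -0.62 without ornithogalum replicate 2.

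IFT52, IFT46 and IFT88 belong to the core of IFT-B, where IFT52 links several subunits and loss of IFT88 is a common way to remove cilia in mice. IFT52 was 4.95 and 4.83 with ornithogalum, against 6.39 and 6.26 with vehicle, and fell by 1.43 on the log2 scale (SE 0.12, adjusted p = 0.00403). IFT46 was 4.92 and 4.84 with ornithogalum, against 5.80 and 5.70 with vehicle, and fell by 0.87 (SE 0.12, adjusted p = 0.00945). IFT88 was 3.76 and 4.01 with ornithogalum, against 4.68 and 4.84 with vehicle, and fell by 0.88 (SE 0.14, adjusted p = 0.0161). In each of these genes the 2 arrays of a group lay closer to each other than to any array of the other group.

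The promoters of IFT74 and IFT46 are shown because both genes fell and hold the RFX half-site; 60 bases are printed for each, 5′ to 3′ on the gene's own strand, with the half-site in capitals. The IFT74 stretch, at chr9:26956352-26956411 on the plus strand, belongs to 1 of several annotated starts, and its half-site begins 28 bases before that start. The IFT46 stretch, at chr11:118566095-118566154 on the minus strand, has its half-site 196 bases before the start.
IFT74: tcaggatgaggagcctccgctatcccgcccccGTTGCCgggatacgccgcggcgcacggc
IFT46: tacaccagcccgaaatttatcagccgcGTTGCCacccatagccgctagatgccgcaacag
The promoter of IFT122, an IFT-A gene whose difference was 0.00, is shown beside them for contrast, at chr3:129440164-129440223 on the plus strand with the half-site 12 bases before the start.
IFT122: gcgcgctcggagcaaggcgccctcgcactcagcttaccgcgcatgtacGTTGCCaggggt
The half-site thus occurred in promoters of IFT genes that fell and of IFT genes that did not.

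The remaining IFT-B genes that fell were IFT22, IFT57 and IFT56. IFT22 encodes a small GTPase-like subunit, and it was 4.99 and 4.74 with ornithogalum, against 5.76 and 5.90 with vehicle (log2 difference -0.97, SE 0.14, adjusted p = 0.0120). IFT57, a peripheral subunit that binds IFT20, was 4.69 and 4.76 with ornithogalum, against 5.65 and 5.31 with vehicle (-0.76, SE 0.15, adjusted p = 0.0302). IFT56, also known as TTC26, was 3.52 and 3.86 with ornithogalum, against 4.45 and 4.26 with vehicle (-0.67, SE 0.16, adjusted p = 0.0489). IFT57 and IFT56 were the IFT calls nearest the threshold. After centring each array on its median, IFT57 had an adjusted p of 0.0531 and IFT56 of 0.0635, and without ornithogalum replicate 1 they had 0.0599 and 0.0723. With all rows tested they had 0.0759 and 0.107, and after quantile normalization IFT57 had 0.0612.

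Of the other IFT-B genes that did not pass, IFT172, IFT70A and IFT70B were lower on both ornithogalum arrays than on both vehicle arrays. IFT172, the largest subunit, which in the alga Chlamydomonas acts in the turnaround of trains at the ciliary tip, was 3.34 and 3.33 with ornithogalum and 3.71 and 3.93 with vehicle, a log2 difference of -0.49 (adjusted p = 0.0582, 95% interval -0.82 to -0.16). IFT70B differed by -0.53 (adjusted p = 0.246, 95% interval -1.23 to 0.17) and IFT70A by -0.43 (adjusted p = 0.197, 95% interval -0.94 to 0.072). IFT70A and IFT70B are close paralogs, and whether their probes read both transcripts was not tested. The difference of IFT70A was -0.18 without ornithogalum replicate 1 and -0.69 without ornithogalum replicate 2. That of IFT70B was -0.16 without vehicle replicate 1 and -0.90 without vehicle replicate 2.

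IFT25, IFT27 and IFT20 differed little. IFT25 and IFT27 form a heterodimer that is needed for the export of Hedgehog pathway proteins in mouse cilia, and IFT20 also resides at the Golgi, where it sorts proteins for the cilium. IFT25 was 5.84 and 6.02 with ornithogalum and 6.09 and 5.79 with vehicle, a difference of -0.01 (95% interval -0.41 to 0.38, adjusted p = 0.965). IFT27 was 4.26 and 4.51 with ornithogalum and 4.35 and 4.34 with vehicle, a difference of 0.04 (95% interval -0.31 to 0.38, adjusted p = 0.869). IFT20 was 5.02 and 5.14 with ornithogalum and 4.95 and 5.04 with vehicle, a difference of 0.09 (95% interval -0.21 to 0.39, adjusted p = 0.639). The groups overlapped for all of them. Their intervals end short of a fall as large as that of IFT56, the smallest IFT fall that passed.

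Of the 3 IFT-A genes with an IFT name, 1 fell (33.3%, beside 12.6% of all tested rows). IFT43, a peripheral subunit, was 4.30 and 3.93 with ornithogalum, against 5.11 and 5.19 with vehicle, and fell by 1.03 on the log2 scale (SE 0.16, adjusted p = 0.0148), or 2.04-fold. IFT140, a core subunit, was 3.77 and 4.31 with ornithogalum and 4.79 and 4.57 with vehicle, a difference of -0.64 that did not pass (adjusted p = 0.102, 95% interval -1.18 to -0.10). The ornithogalum arrays lay below the vehicle arrays for both. IFT122, which also lies in the IFT-A core, was 4.26 and 4.46 with ornithogalum and 4.37 and 4.35 with vehicle, a difference of 0.00 (95% interval -0.32 to 0.32, adjusted p = 0.997), and its groups overlapped. The difference of IFT140 was -0.38 without ornithogalum replicate 1 and -0.91 without ornithogalum replicate 2.

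**Figure D2:**
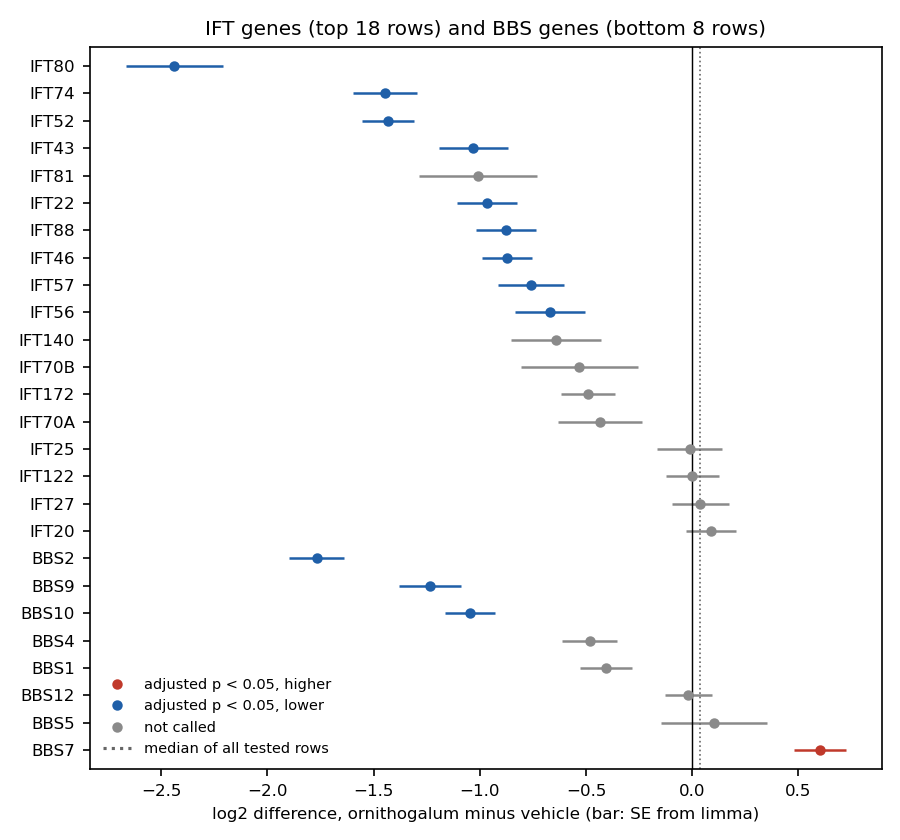
Log2 difference, ornithogalum minus vehicle (horizontal axis), with its limma SE as a bar for the 18 IFT genes (upper rows) and the 8 BBS genes (lower rows); blue genes fell, red genes rose and grey genes did not pass, and the dotted line marks the median of all tested rows at 0.035. The IFT genes run between -2.44 for IFT80 and 0.09 for IFT20 with 9 blue and 0 red, and among the BBS genes BBS7 is the red one at 0.60.

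Of the 6 BBSome subunits with a BBS name, 2 fell (33.3%) and 1 rose (16.7%), beside 12.6% and 6.57% of all tested rows. BBS2, BBS7 and BBS9 form the core that assembles first. BBS2 was 3.93 and 3.89 with ornithogalum, against 5.79 and 5.57 with vehicle, and fell by 1.77 on the log2 scale (SE 0.13, adjusted p = 0.00336), or 3.40-fold. BBS9 was 3.31 and 3.19 with ornithogalum, against 4.63 and 4.34 with vehicle, and fell by 1.23 (SE 0.15, adjusted p = 0.00725). BBS7 was 5.51 and 5.41 with ornithogalum, against 4.93 and 4.79 with vehicle, and rose by 0.60 (SE 0.12, adjusted p = 0.0297), or 1.52-fold. Subunits of the same core thus fell and rose with both arrays of each group apart. With all 33297 rows of the array tested, the adjusted p of BBS7 was 0.0738.

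BBS4, BBS1 and BBS5, which lie outside that core, did not pass. BBS4, which ties the complex to pericentriolar satellites, was 4.46 and 4.67 with ornithogalum and 5.03 and 5.07 with vehicle (difference -0.48, adjusted p = 0.0598, 95% interval -0.81 to -0.16). BBS1, which binds the small GTPase that recruits the complex to membranes, was 4.52 and 4.34 with ornithogalum and 4.81 and 4.85 with vehicle (difference -0.41, adjusted p = 0.0852, 95% interval -0.72 to -0.090). BBS5, a phosphoinositide-binding subunit, was 2.25 and 1.57 with ornithogalum and 1.70 and 1.92 with vehicle (difference 0.10, adjusted p = 0.807, 95% interval -0.54 to 0.74). BBS4 and BBS1 were lower on both ornithogalum arrays, whereas BBS5 overlapped between groups. Without ornithogalum replicates 1 and 2 in turn, BBS4 differed by -0.38 and -0.59, and BBS1 by -0.50 and -0.32. After median centring BBS4 differed by -0.32 and BBS1 by -0.25.

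BBS10 and BBS12 encode chaperonin-like proteins that help the BBSome core to assemble. BBS10 was 2.82 and 2.96 with ornithogalum, against 3.93 and 3.95 with vehicle, and fell by 1.05 on the log2 scale (SE 0.12, adjusted p = 0.00640), or 2.06-fold. BBS12 was 3.32 and 3.29 with ornithogalum and 3.32 and 3.32 with vehicle, a difference of -0.02 (adjusted p = 0.926, 95% interval -0.30 to 0.26). Its deposited value was exactly 3.32316 on ornithogalum replicate 1 and on both vehicle arrays. Whether this row responds to its transcript was not tested. The groups of BBS10 were apart and those of BBS12 overlapped. The promoter of BBS10 holds the RFX half-site 221 bases before the start, in the stretch at chr12:76348604-76348663 on the minus strand, and is shown as the BBS gene that fell with a match; the half-site is in capitals.
BBS10: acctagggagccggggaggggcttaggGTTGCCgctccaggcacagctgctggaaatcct

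Among the CEP genes of the transition zone, the pericentriolar satellites and the axoneme, 4 of the 6 listed fell and 0 rose. The share that fell was 66.7%, beside 12.6% of all tested rows, and the median log2 difference was -0.84. CEP41, which is needed for glutamylation of ciliary tubulin and is mutated in Joubert syndrome, was 2.33 and 2.79 with ornithogalum, against 4.23 and 4.47 with vehicle. It fell by 1.79 on the log2 scale (SE 0.19, adjusted p = 0.00595), or 3.46-fold. CEP162, which binds axonemal microtubules at the distal centriole and helps to tether the transition zone, was 2.65 and 2.01 with ornithogalum, against 3.93 and 3.86 with vehicle, and fell by 1.57 (SE 0.23, adjusted p = 0.0125). In both genes the gap between the groups was wider than the gap between the ornithogalum arrays.

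CEP290, a transition zone protein whose loss causes several human ciliopathies, was 2.66 and 2.47 with ornithogalum, against 3.73 and 3.32 with vehicle, and fell by 0.96 on the log2 scale (SE 0.18, adjusted p = 0.0236). CEP126, a satellite protein, was 3.09 and 3.23 with ornithogalum, against 3.93 and 3.81 with vehicle, and fell by 0.71 (SE 0.12, adjusted p = 0.0195). CEP72 and CEP131, satellite genes on the same list, differed by -0.06 and 0.07 and their groups overlapped. With all rows of the array tested, the adjusted p was 0.0638 for CEP290 and 0.0544 for CEP126.

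The genes of centriole appendages, the linker between centrioles and the basal body gave 2 falls and 0 rises among 9. The share that fell was 22.2%, beside 12.6% of all tested rows, and the median log2 difference was -0.22. CEP89, a distal appendage protein that takes part in docking the centriole to the membrane, was 4.35 and 4.52 with ornithogalum, against 5.20 and 5.08 with vehicle (log2 difference -0.71, SE 0.13, adjusted p = 0.0212). CEP128, a subdistal appendage protein, was 4.09 and 4.13 with ornithogalum, against 4.96 and 4.68 with vehicle (-0.71, SE 0.14, adjusted p = 0.0279). The groups did not overlap for either. The CEP128 call was lost after median centring (adjusted p = 0.0572) and without ornithogalum replicate 1 (0.0517), and with all rows tested the adjusted p was 0.0712 for CEP128 and 0.0577 for CEP89.

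CEP41, CEP126 and CEP89 all fell and hold the RFX half-site, and CEP44, described below, rose and holds it too, so their promoters are shown together, 60 bases each on the gene's own strand with the half-site in capitals. CEP41 at chr7:130441135-130441194 on the minus strand has 2 half-sites facing each other, 1 on each strand.
CEP41: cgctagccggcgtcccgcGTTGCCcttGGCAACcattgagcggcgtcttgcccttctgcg
CEP126 lies at chr11:101914870-101914929 on the plus strand, with the half-site 113 bases before the start.
CEP126: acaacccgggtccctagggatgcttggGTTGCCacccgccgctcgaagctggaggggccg
CEP89 lies at chr19:32972051-32972110 on the minus strand, with the half-site 125 bases before the start.
CEP89: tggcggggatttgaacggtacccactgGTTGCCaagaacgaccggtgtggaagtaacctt
CEP44 lies at chr4:174283661-174283720 on the plus strand, with the half-site 246 bases before the start.
CEP44: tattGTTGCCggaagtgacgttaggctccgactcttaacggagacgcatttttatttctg
Genes with the half-site were therefore found among those that fell, rose and did not pass.

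Among the CEP genes of centriole duplication and assembly, 3 of 13 rose (23.1%) and 1 fell (7.69%), with a median log2 difference of -0.06. The shares of all tested rows were 6.57% higher and 12.6% lower. CEP44, which acts in turning a new centriole into a centrosome, was 4.71 and 4.76 with ornithogalum, against 3.98 and 4.02 with vehicle, and rose by 0.74 on the log2 scale (SE 0.11, adjusted p = 0.0130), or 1.67-fold. CEP97, which caps the distal end of the centriole with CP110 and holds back cilium formation, was 6.01 and 5.95 with ornithogalum, against 5.32 and 5.21 with vehicle, and rose by 0.71 (SE 0.12, adjusted p = 0.0160), or 1.64-fold. CEP85, which binds the duplication factor STIL, was 5.75 and 5.85 with ornithogalum, against 5.26 and 5.28 with vehicle, and rose by 0.53 (SE 0.11, adjusted p = 0.0339). In all of them each group's arrays lay close together and apart from the other group. With all rows tested the adjusted p of CEP85 was 0.0807.

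CEP192, a scaffold of the pericentriolar matrix that recruits kinases for duplication and spindle assembly, was the duplication gene that fell. Its log2 value was 5.67 and 5.59 with ornithogalum, against 6.20 and 6.31 with vehicle, a log2 difference of -0.62 (SE 0.12, adjusted p = 0.0243). The groups did not overlap, yet the call was lost after median centring (adjusted p = 0.0769), after quantile normalization (0.0657) and with all rows tested (0.0633). CEP152, which recruits the duplication kinase PLK4, was 5.04 and 5.58 with ornithogalum and 4.70 and 4.48 with vehicle, a difference of 0.73 that did not pass (adjusted p = 0.0780, 95% interval 0.18 to 1.27). CEP295 and CEP135, also of this group, differed by 0.43 (adjusted p = 0.0736) and 0.39 (adjusted p = 0.0946) and were above the vehicle arrays on both ornithogalum arrays.

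Of the 9 CEP genes in none of these groups, 1 rose (11.1%) and 0 fell, beside 6.57% and 12.6% of all tested rows. CEP95, a centrosomal protein of little known function, was 7.90 and 7.93 with ornithogalum, against 7.17 and 6.96 with vehicle, and rose by 0.85 on the log2 scale (SE 0.13, adjusted p = 0.0132), or 1.80-fold, the largest rise of the 63 genes. CEP43, a basal body protein, differed by 0.46 (adjusted p = 0.0571). The range of differences in this group was -0.39 to 0.85. Over all 26 CEP genes that did not pass, in whatever group, differences ran between -0.47 for CEP250, a protein of the linker between centrioles, and 0.73 for CEP152, with a median SE of 0.13.

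The 4 uncalled CEP genes of highest array value show how small a difference these arrays leave undecided. CEP350, which anchors microtubules at the centrosome, was 7.65 and 7.70 with ornithogalum and 7.64 and 7.60 with vehicle, a log2 difference of 0.05 (SE 0.11, adjusted p = 0.770, 95% interval -0.23 to 0.34). CEP55, which acts at the midbody in the last step of cell division, was 7.05 and 7.07 with ornithogalum and 7.17 and 6.98 with vehicle, a difference of -0.01 (SE 0.13, adjusted p = 0.957, 95% interval -0.33 to 0.31). Neither interval reaches the falls seen for the transition zone genes. CEP170, a subdistal appendage protein, was 7.15 and 7.33 with ornithogalum and 7.60 and 7.69 with vehicle, a difference of -0.41 (SE 0.13, adjusted p = 0.0883), and its second row gave -0.43 (adjusted p = 0.139). CEP20, a satellite and basal body protein that is on none of the lists by role, was 7.29 and 7.36 with ornithogalum and 6.97 and 6.94 with vehicle, a difference of 0.37 (SE 0.11, adjusted p = 0.0828). CEP170 and CEP20 had groups that did not overlap, and both passed with an intensity trend (adjusted p = 0.0231 and 0.0200). After median centring CEP170 differed by -0.25 (adjusted p = 0.199) and CEP20 by 0.53 (adjusted p = 0.0384). Whether the CEP170 probes also read a close copy was not tested.

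The split of CEP genes between directions moved with the scaling, as did that of all tested rows. Of the CEP genes 4 rose and 7 fell on the deposited values, 9 rose and 5 fell after median centring, and 8 rose and 6 fell after quantile normalization. Over all tested rows the calls were 1393 higher and 2683 lower, 2238 higher and 1898 lower, and 1817 higher and 2308 lower in those settings. Median centring shifts all genes alike: the median difference was then 0.195 for all tested rows and 0.045 for the CEP genes, beside 0.035 and -0.11 on the deposited values. The IFT genes had 0 higher and 7 lower after it, with a median of -0.55, and the BBS genes 1 higher and 3 lower, with a median of -0.29. Without ornithogalum replicate 2 the median difference was -0.21 for the CEP genes and -0.0019 for all tested rows.

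**Figure D3:**
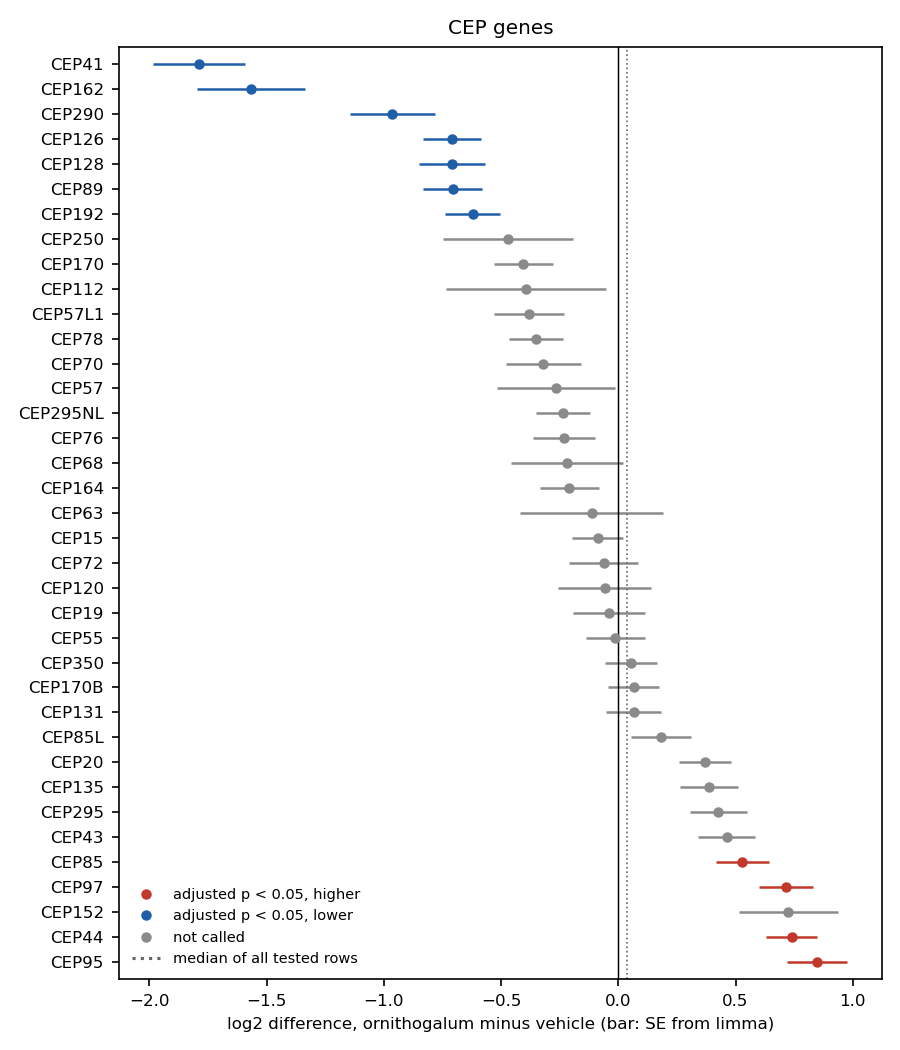
Log2 difference, ornithogalum minus vehicle (horizontal axis), with its limma SE as a bar for the 37 CEP genes, ordered by difference; blue genes fell, red genes rose, grey genes did not pass, and the dotted line marks the median of all tested rows at 0.035. The genes run between -1.79 for CEP41 and 0.85 for CEP95, with 7 blue at the top and 4 red near the bottom, where CEP152 at 0.73 is grey with a wider bar.

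Other genes of the same structures were read from lists of known components. The shares called in each list stand beside 12.6% lower and 6.57% higher over all tested rows. Of 10 IFT and BBSome subunits or associated genes that carry other names, 2 fell (20%) and 0 rose. Their median log2 difference was -0.35. TTC8, the BBSome subunit also called BBS8, averaged 4.64 ± 0.06 on the ornithogalum arrays and 5.88 ± 0.12 on the vehicle arrays (SD, n = 2 each), a difference of -1.25 (adjusted p = 0.00499 in limma). MKKS, the third chaperonin-like BBS gene, fell by 0.81 (adjusted p = 0.0301), a call lost with all rows tested (0.0762) and without ornithogalum replicate 1 (0.0624). The IFT-A subunits WDR19, TTC21B and WDR35 differed by -0.41, -0.14 and 0.23 and did not pass. Of 11 genes for ciliary motors, 3 fell (27.3%) and 1 rose (9.09%), with a median of -0.15. Those that fell were KIF3A, a subunit of the outward kinesin, by 1.51, and the return dynein genes DYNC2I1 by 1.42 and DYNC2LI1 by 1.01, while DYNLRB1, a light chain shared with cytoplasmic dynein, rose by 0.61.

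Of 17 further transition zone genes, 4 fell (23.5%) and 1 rose (5.88%), with a median of -0.38. TMEM67, a membrane protein of the zone, fell by 1.39 (adjusted p = 0.00849 in limma), INVS, which marks the segment above it, by 0.95 (adjusted p = 0.0124) and TCTN2 by 0.82 (adjusted p = 0.00977). Of 21 genes for cilium assembly and membrane traffic, 6 fell (28.6%) and 0 rose, with a median of -0.23. They included PDE6D, which ferries lipidated proteins into the cilium and fell by 1.33, RAB23, a small GTPase of the Hedgehog pathway that fell by 1.32, and RFX5, which fell by 1.25 and is best known for regulating MHC class II genes. The other RFX genes of that list did not pass: RFX1 differed by 0.66 and RFX3 by 0.29, both above the vehicle arrays on both ornithogalum arrays, and RFX2 by -0.16.

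Of 31 genes for the centriole core and the centrosome matrix, 8 fell (25.8%) and 2 rose (6.45%), with a median of -0.07. SPICE1, which acts in centriole duplication, fell by 2.00 (3.70 ± 0.49 on the ornithogalum arrays and 5.70 ± 0.05 on the vehicle arrays, SD, n = 2 each, adjusted p = 0.00767 in limma). TUBGCP5, a subunit of the gamma-tubulin ring complex, fell by 1.19 (adjusted p = 0.00577), and AKAP9, a scaffold at the centrosome and Golgi, rose by 0.94 (adjusted p = 0.0114). Of 12 genes for cilium disassembly, 2 fell (16.7%) and 1 rose (8.33%), near the 12.6% and 6.57% of all tested rows. Their median was -0.20. NEDD9, a scaffold that activates Aurora A at the basal body, rose by 0.95 (adjusted p = 0.00721). The mitotic kinase PLK1 fell by 0.78 (adjusted p = 0.0108). Of 16 Hedgehog pathway genes, which signal through the cilium, 1 fell (6.25%, below the 12.6% of all tested rows) and 0 rose. Their median was -0.01. The one that fell was PTCH1, the Hedgehog receptor and a target of the pathway, by 0.92 (adjusted p = 0.0349, or 0.0847 with all rows tested).

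**Figure D4:**
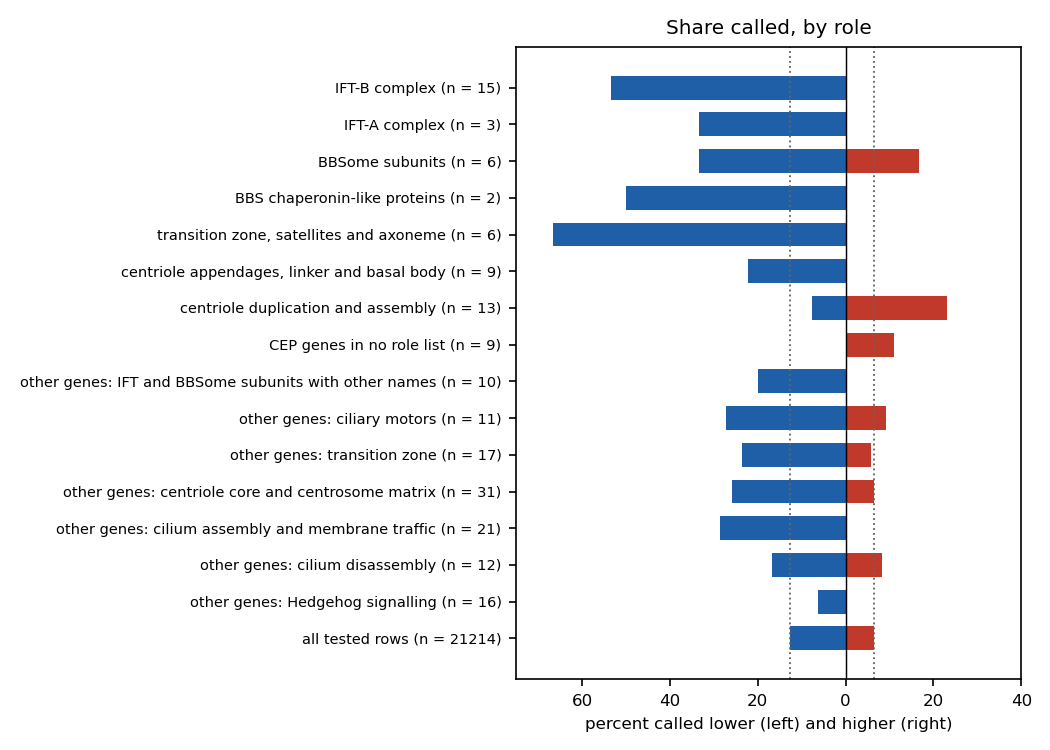
Percent of genes called lower (blue bars, to the left of 0) and higher (red bars, to the right of 0) for each group of CEP, IFT and BBS genes, for the related lists and for all tested rows, with the number of genes in brackets; dotted lines mark all tested rows at 12.6% lower and 6.57% higher. Transition zone, satellite and axoneme CEP genes reach 66.7% lower and IFT-B genes 53.3%, while centriole duplication and assembly has 7.69% lower and 23.1% higher.

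Some facts about the arrays stand beside these results. The ornithogalum arrays had lower medians over all tested rows, 4.48 and 4.62, against 4.71 and 4.70 with vehicle, and a wider spread within the group (SD 0.258 with ornithogalum and 0.140 with vehicle). Their part in the falls was not tested beyond the scalings and left-out arrays given above. The genes that fell had vehicle means between 3.53 and 6.32 on the log2 scale. By the mean over all 4 arrays, between 20.1% and 75.4% of tested rows were dimmer than these genes. Detection calls were not used here.

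The labelled cell type was read from marker genes. The epithelial markers EPCAM, KRT8 and KRT18 were high, with EPCAM at 10.1 and 10.0 with ornithogalum and 10.1 and 9.59 with vehicle, and none of the 3 passed. Of 10 gastric and intestinal markers 5 fell (50%, beside 12.6% of all tested rows) and 0 rose. The log2 differences of those that fell were -1.71 for LGALS4, -1.40 for KRT19, -1.39 for CEACAM5, -0.96 for CEACAM6 and -0.62 for CDH17. The list had summed log2 values of 71.7 and 72.2 with ornithogalum and 78.7 and 78.1 with vehicle. Of 12 markers of multiciliated cells, a cell type with many motile cilia, 0 passed in limma (without adjustment 1 was higher and 0 were lower). They ranged between 1.58 and 5.03 on single arrays, with sums of 38.5 and 37.6 with ornithogalum and 36.0 and 36.1 with vehicle, so the sums were not lower with ornithogalum. Of 8 fibroblast markers 1 rose, PDGFRA (12.5%, beside 6.57% of all tested rows). Their sums were 32.3 and 30.6 with ornithogalum and 29.7 and 29.4 with vehicle. Of 7 leukocyte markers 1 rose, CD68 (14.3%, beside the same 6.57%). Their sums were 34.7 and 34.7 with ornithogalum and 33.2 and 33.3 with vehicle. The defining marker PTPRC stayed between 1.44 and 1.74. LYZ, on the leukocyte list but also made by gastric epithelium, was 11.7 and 11.7 with ornithogalum and 11.7 and 11.8 with vehicle. The part of these markers in the results was not tested.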

How the data were processed

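The authors deposited log2 values for each transcript cluster on each array. Per the submitters' processing notes they come from RMA (robust multi-array average), run in version 1.1 of Affymetrix Expression Console. RMA had thus already background-corrected and normalized the values, and no further scaling was applied. No scanner files or detection calls were used. Of 33297 rows, 21214 had a symbol in the platform annotation (19460 with 1 symbol, 1754 with several) and were tested in R 4.3.3 with limma version 3.58.1 (functions lmFit and eBayes, 4 arrays, ornithogalum minus vehicle, two-sided, Benjamini-Hochberg over all tested rows, threshold 0.05). "Rose" and "fell" are used of differences past that threshold. The procedure was also tried on simulated data with the same spread in both groups, so that trial does not cover the unequal spread of these arrays. The number of arrays, 2 per group, limits the precision. Every IFT and BBS gene was named, with all called CEP genes, the 4 uncalled CEP genes of highest value, and at most 3 called genes of smallest p per related list. CEP72, CEP131, CEP250, CEP152, CEP295, CEP135, CEP43, DYNLRB1, WDR19, TTC21B, WDR35, RFX1, RFX2 and RFX3, and the markers given singly, were named after their values were seen. IFT25, IFT56, IFT70A and IFT70B were added to the IFT-B group once the annotation was read. Members, groups and lists were chosen with earlier results of these data known. The alternatives were the replicate number as a block, each array left out, median centring, quantile normalization, brighter rows only, an intensity trend, all rows, the dimmer row per gene, updated symbols, unadjusted p, and array weights, the last added after seeing the data. Promoter windows came from RefSeq (GRCh38.p14).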

Additional observations from a re-analysis of the deposited data

How the results depend on the processing

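The direction of all 24 called CEP, IFT and BBS genes was the same after median centring and after quantile normalization. The other alternatives could not reverse it. They left the difference unchanged, or left out a single array from groups that did not overlap. Leaving out single arrays gave between 0 and 6 CEP genes higher and 0 and 11 lower, 0 and 12 IFT genes lower, and 0 and 1 BBS genes higher and 0 and 4 lower; the zeros are the fits without a vehicle array, in which limma called 0 of 21214 rows. The upper ends for lower CEP and IFT genes come from the fit without ornithogalum replicate 2. Among the fits with an array left out, that fit also called the most of all tested rows. Whether these families gained more calls there than other rows did was not tested. The medians over the fits with an array left out lay between -0.85 and -0.59 for IFT genes and between -0.21 and -0.069 for CEP genes. For all tested rows they lay between -0.0019 and 0.043. The labels do not say whether same-numbered cultures were handled together, and the correlation of their arrays' deviations was -0.059. With the replicate block, 3 CEP genes rose and 6 fell, 0 IFT genes rose and 9 fell, and 0 BBS genes rose and 3 fell. Of all tested rows 1035 rose and 2267 fell with that block. The limma calls of BBS7 (adjusted p = 0.0503), CEP192 (0.0510), CEP85 (0.0708) and IFT56 (0.0730) were then lost, and that of IFT81 (0.0241) was gained. Median centring gave 9 CEP genes higher and 5 lower, and medians of 0.045 for CEP (beside 0.195 for all rows), -0.55 for IFT and -0.29 for BBS genes. Quantile normalization gave 8 CEP genes higher and a BBS median of -0.27. Among brighter rows only, 8 CEP genes rose and 4 fell of 22 tested, and 4 IFT genes fell of 6, while of all 10607 such rows 1811 rose and 3021 fell. An intensity trend gave 8 CEP genes higher and 8 lower, beside 1822 higher and 3344 lower of all 21214 tested rows. Testing all 33297 rows gave 2 CEP genes lower and 0 BBS genes higher, beside 1677 rows lower and 967 higher. Unadjusted p gave 9 CEP genes higher and 5 BBS genes lower, beside 3004 tested rows higher and 4156 lower. Array weights gave 4 CEP genes higher and 7 lower, 10 IFT genes lower, and 1 BBS gene higher and 3 lower. With those weights 1350 tested rows were higher and 2723 lower. The dimmer row and updated symbols changed no count and could change little. Only 1 of the genes, CEP170, has several rows, and 0 have another current symbol. The cause of these changes was not tested. Of the uncalled genes BBS12, BBS5, CEP55, IFT122, IFT25 and IFT27 changed sign in at least 1 setting. With 2 arrays per group and no detection calls used, small differences of dim rows could not be resolved.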
